A study of Mus musculus with 18 samples.

Results

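The 4 transcription factor genes Pou5f1 (encoding Oct4), Sox2, Nanog and Sall4 were followed through all 18 samples of a mouse embryonic stem cell (ESC) array series. They were taken by gene symbol from the platform annotation, which assigned them 5 probe sets among the 34945 that name 1 gene. No probe set named a member together with another gene. Sall4 had 2 probe sets and the other genes 1 each, so the members were 4 of 18193 genes. All samples were EBRTcH3 ESCs or derivatives, male and of 129SV background, grown with LIF in serum unless 2i is stated, and each sample was hybridised to 1 array.

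The PI3K inhibitor LY294002 was given until day 5 to parental ESCs (2 samples, each with its own untreated sample), and until day 2 to parental ESCs (1 sample, sharing the untreated sample of replicate 2). Samples labelled as overexpressing wild-type c-Myc, and others labelled c-Myc T58A, a point mutant, comprised 1 sample at day 2, 1 at day 5 and 1 untreated in each line. Parental ESCs grown in 2i, which blocks MEK and GSK3, comprised 1 day 5 and 1 untreated sample. Max-null ESCs, in which doxycycline (Dox) is used to ablate Max, the obligate partner of Myc proteins, had 1 sample at Dox day 4, 1 at Dox day 6 and 1 untreated. Max-null ESCs labelled as overexpressing p110 alpha, a catalytic subunit of PI3K, had 1 Dox sample, whose day the labels do not give, and 1 untreated sample. The promoter driving each transgene and the number of clones behind each line are not given in the sources used here, nor whether replicates were separate cultures, so p-values measure only the spread between these samples.

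Oct4, a POU-domain protein, and Sox2, an HMG-box protein, bind DNA together at paired motifs in many genes active in ESCs, including their own. Nanog is a homeodomain protein of the same network, and its RNA and protein are known to vary between single ESCs in serum while Oct4 varies less. Sall4 is a zinc-finger protein that binds near many of the same genes and associates with Oct4, with Nanog and with the NuRD corepressor. Oct4 and Sox2 continue to be expressed when mouse pluripotent cells pass from the naive state of ESCs toward the primed epiblast, a step at which several naive factors are lost.

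The RefSeq promoter windows of Pou5f1, Sox2 and Nanog are the 250 bases before each gene's start in build GRCm38.p6. They were searched for motifs that Oct4 and Sox2 recognise, which not every window holds, and for other motifs. Capitals mark exact matches, on either strand, to the POU motif ATGCAAA, the Sox motif CATTGT and the GC box GGGCGG. Pou5f1 is at chr17:35505782-35506031, Sox2 at chr3:34649745-34649994 and Nanog at chr6:122707239-122707488, all on the plus strand, and Sall4 is named only.
Nanog: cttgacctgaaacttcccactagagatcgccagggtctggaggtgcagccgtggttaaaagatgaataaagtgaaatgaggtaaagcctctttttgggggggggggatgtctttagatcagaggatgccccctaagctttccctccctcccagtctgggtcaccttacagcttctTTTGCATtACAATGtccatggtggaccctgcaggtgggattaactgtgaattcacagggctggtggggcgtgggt
Sox2: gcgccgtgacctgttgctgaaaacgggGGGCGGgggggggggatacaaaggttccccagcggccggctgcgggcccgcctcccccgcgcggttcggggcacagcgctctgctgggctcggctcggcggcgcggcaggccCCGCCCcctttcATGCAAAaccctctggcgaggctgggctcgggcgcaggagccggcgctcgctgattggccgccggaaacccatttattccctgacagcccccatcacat
Pou5f1: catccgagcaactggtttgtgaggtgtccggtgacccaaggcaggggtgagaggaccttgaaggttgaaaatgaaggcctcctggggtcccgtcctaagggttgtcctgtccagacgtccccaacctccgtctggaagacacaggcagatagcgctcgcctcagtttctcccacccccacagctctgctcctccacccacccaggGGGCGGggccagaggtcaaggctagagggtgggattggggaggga

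The Nanog window held a POU motif at positions -75 to -69 and a Sox motif at -67 to -62, both on the minus strand with 1 base between them. A POU and a Sox motif within 3 bases of each other occurred in 6 of 32841 windows (0.0183%), which belonged to 5 genes, Nanog among them. The Sox2 window held a POU motif at -99 to -93, without a Sox motif, and GC boxes at -223 to -218 and -111 to -106. The Pou5f1 window held 1 GC box at -45 to -40. Taken singly, the POU motif occurred in 4.13% of windows, the Sox motif in 10.7% and the GC box in 32.7%. The E-box CACGTG, recognised by Myc-Max dimers, occurred in 6.02% of windows, and the FOXO motif TGTTTAC, recognised by factors that PI3K signalling restrains, in 3.17%. Neither was found in these 3 windows.

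Levels are log2 values from robust multi-array averaging (RMA), and a change is a difference of such values. All 6 ESC markers looked up (Zfp42, Dppa5a, Dppa4, Tdgf1, Utf1 and Esrrb) lay above the level filter of 4.64 in every sample. Fibroblast feeder markers were mostly below it, with 1 to 4 of 9 above it per sample and means of 3.76 to 4.66. Array medians fell into 2 sets, 5.028 to 5.053 in the 4 arrays from 2i and from serum replicate 1 of the parental line, and 5.309 to 5.524 in the remaining 14, so levels are best compared within each set. Every treated sample lay in the same set as its own untreated sample. The array did not show each labelled manipulation as a level change. Max read 6.33 to 7.18 in the 5 Max-null samples, against 8.17 to 8.71 in the other 13, but it read 6.89 at Dox day 4, 7.18 at Dox day 6 and 7.09 without Dox in Max-null ESCs. Myc read 7.51 in untreated cells labelled wild-type c-Myc and 6.99 in those labelled c-Myc T58A, against 7.43 in untreated parental replicate 2. Without Dox, Pik3ca, which encodes p110 alpha, was at 8.82 in the p110 alpha Max-null line, against 8.50 in the Max-null line. It read 8.86 in untreated parental replicate 2. Whether these probe sets cover the deleted part or the transgene is not given in the sources used here, so group names rest on the labels, and 1 description calls the T58A line N-Myc overexpressing.

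Nanog had the widest range over the samples of the 4 genes. Over the 18 samples Nanog ranged from 11.62 to 13.15, a range of 1.52 or 2.87-fold. Pou5f1 ranged from 12.63 to 13.16, a range of 0.52 or 1.44-fold. Sox2 ranged from 12.52 to 13.20, a range of 0.68 or 1.60-fold. The brighter Sall4 probe set ranged from 11.61 to 12.10, a range of 0.48 or 1.40-fold, and the other Sall4 probe set from 8.42 to 9.13. These ranges span both array sets. With arrays centred on their medians they were 1.48 for Nanog, 0.70 for Pou5f1, 0.79 for Sox2 and 0.97 for Sall4, and after quantile normalization 1.53, 0.33, 0.49 and 0.65.

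**Figure D1:**
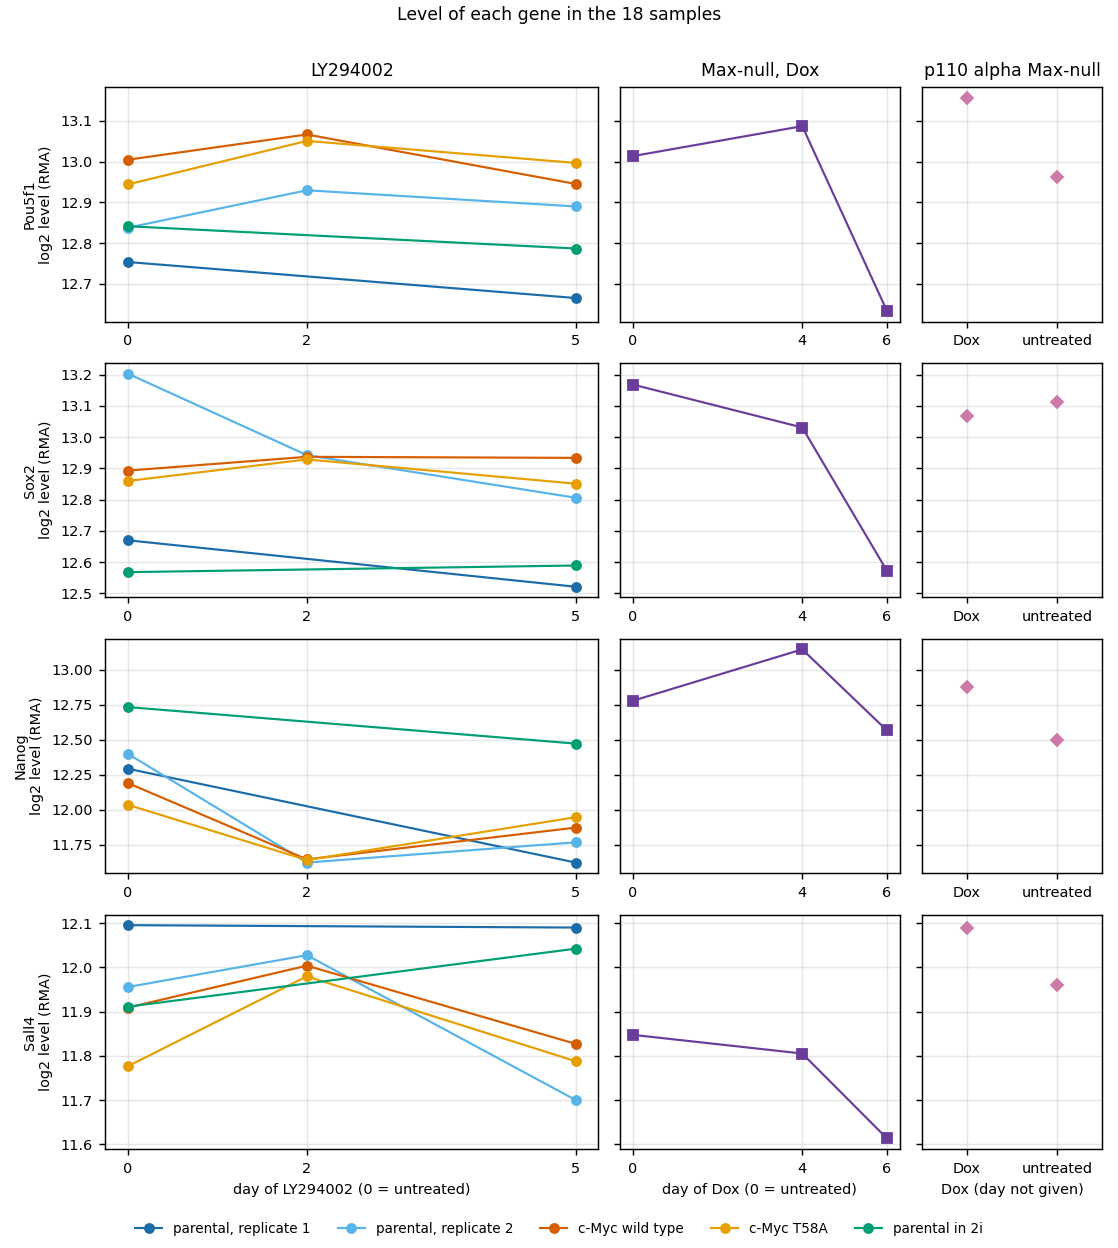
Log2 RMA level (y axes, 1 row per gene, each with its own scale) against day of LY294002 or Dox (x axes), and for p110 alpha Max-null ESCs with Dox left of untreated; each point is 1 sample and lines join the samples of a line. Nanog lies at 11.62 to 11.64 at day 2 of LY294002 in all 3 lines, and Pou5f1 is lowest in Max-null ESCs at Dox day 6, at 12.63.

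In order of level, Nanog was highest in Max-null ESCs at Dox day 4 (13.15). It was next in p110 alpha Max-null ESCs with Dox (12.87), in untreated Max-null ESCs (12.78) and in untreated 2i ESCs (12.73), although 2i lies in the other array set and came second (12.99) with arrays centred on their medians. The 7 serum samples with LY294002 held the 7 lowest Nanog levels, from 11.62 to 11.95 with a median of 11.64. The other 11 samples, which include 2i ESCs with LY294002 and the Max-null lines, lay between 12.04 and 13.15 with a median of 12.50. How many of all genes separate these samples in the same way was not counted. The 2 parental replicates differed by 0.15 at day 5 and by 0.11 untreated. Neighbours in the order differed by at most 0.27, and in 14 of 17 steps by less than these replicates did at day 5.

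For the other genes the samples with and without LY294002 were interleaved. Pou5f1 had a median of 12.95 in the 7 serum samples with LY294002 and of 12.94 in the other 11 samples. Sox2 had a median of 12.93 with LY294002 and 12.89 in the others, and Sall4 of 11.98 with LY294002 and 11.91 in the others. Neighbours in the order of levels differed by at most 0.0884 for Pou5f1, 0.1358 for Sox2 and 0.0865 for Sall4. Each of these is below the larger of the 2 differences between parental replicates, which was 0.22 for Pou5f1, 0.53 for Sox2 and 0.39 for Sall4. The parental replicates lie in different array sets, so these differences include any offset between the sets.

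Nanog was lower at day 2 of LY294002 in all 3 lines sampled then. Its level was 11.62 in parental replicate 2, 11.64 in wild-type c-Myc and 11.64 in c-Myc T58A ESCs at day 2, against 12.40, 12.19 and 12.04 in the untreated samples of these lines. The 3 treated samples lay within 0.0228 of each other. The fitted change was -0.57 ± 0.11 (SE, n = 3 lines), 1.49-fold lower, with an adjusted p of 0.00665 by limma with line as a block. At this day 30.5% of 13420 genes passed (12.3% lower and 18.3% higher), so 1 of 4 members was near that background. Without the wild-type c-Myc line the change was -0.59 and its adjusted p 0.0795, so the call rests on that line being included.

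Pou5f1, Sox2 and Sall4 did not pass at day 2. Pou5f1 had levels of 12.93, 13.07 and 13.05 at day 2 in parental replicate 2, wild-type c-Myc and c-Myc T58A ESCs, against 12.84, 13.00 and 12.94 untreated. It was higher in 3 of 3 lines by 0.06 to 0.11, and the fitted change was 0.09 with a 95% interval of -0.07 to 0.24. Sox2 had levels of 12.94, 12.94 and 12.93 at day 2, against 13.20, 12.89 and 12.86 untreated. Its value was lower in the parental line and slightly higher in both c-Myc lines, with a fitted change of -0.05 (interval -0.28 to 0.18). Sall4 had levels of 12.03, 12.00 and 11.98 at day 2, against 11.96, 11.91 and 11.78 untreated, with a fitted change of 0.12 (interval -0.05 to 0.30). Its second probe set differed from untreated by -0.12, -0.06 and 0.28 in the same lines, so the 2 probe sets differed in sign in 2 of 3 lines. The adjusted p-values were 0.368 for Pou5f1, 0.747 for Sox2 and 0.263 for Sall4, and each interval excludes a change of 1.5-fold either way.

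At day 5 in the same 3 lines Nanog was still lower than untreated. Its level was 11.77, 11.87 and 11.95 at day 5 in parental replicate 2, wild-type c-Myc and c-Myc T58A ESCs, each below its own untreated sample by 0.63, 0.32 and 0.09. The fitted change was -0.35 ± 0.11 (SE, n = 3 lines), 1.27-fold lower, with a limma adjusted p of 0.0303, when 44.1% of genes passed (18.5% lower and 25.7% higher). The call was lost without the wild-type c-Myc line (-0.36, adjusted p 0.160) and without the parental line (-0.20, adjusted p 0.147). Pou5f1, Sox2 and Sall4 had fitted changes of 0.02, -0.12 and -0.11, with adjusted p-values of 0.872, 0.358 and 0.289.

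Between day 2 and day 5 no member passed, when 2.35% of genes did. Nanog was higher at day 5 than at day 2 in 3 of 3 lines, with a fitted difference of 0.23 ± 0.11 (SE) and a limma adjusted p of 0.245. Sall4 was lower at day 5 than at day 2 in 3 of 3 lines, with levels of 11.70, 11.83 and 11.79 at day 5 against 12.03, 12.00 and 11.98 at day 2. Its fitted difference was -0.23 ± 0.08 (SE), with a limma adjusted p of 0.132 and an unadjusted p of 0.0172 by limma, when 23.6% of genes had an unadjusted p under 0.05.

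**Figure D2:**
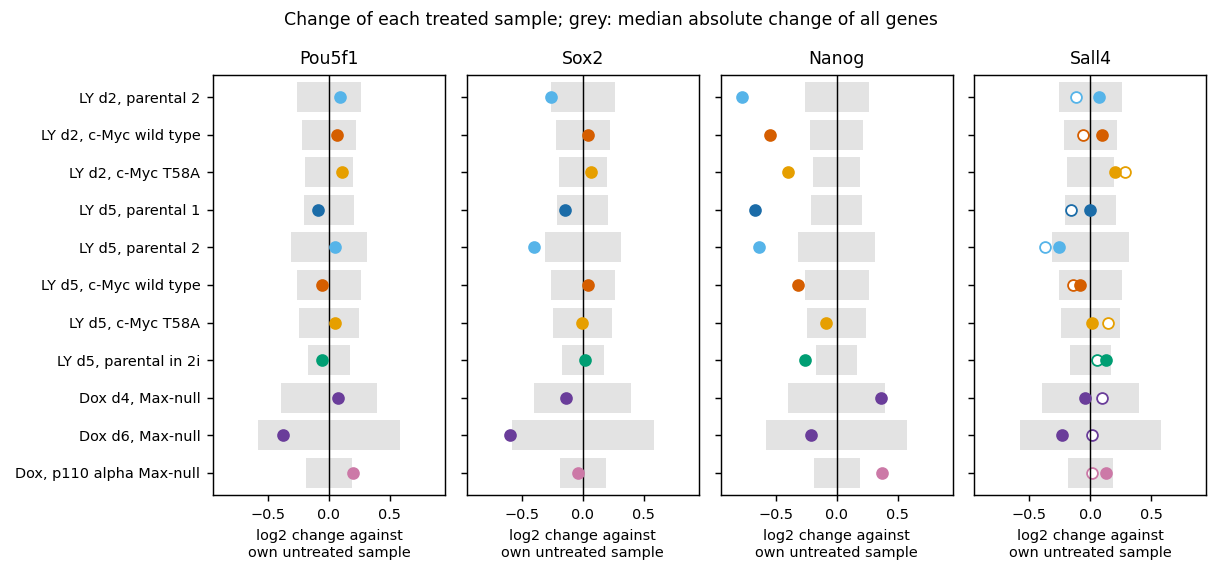
Log2 change of each of the 11 treated samples against its own untreated sample (x axes) for each gene; open circles under Sall4 are its second probe set and grey bars span the median absolute change of all genes in that sample, to either side of 0. Nanog lies left of the grey bar in 7 of the 8 samples with LY294002, at -0.26 to -0.78, and inside it in the c-Myc T58A line at day 5.

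In parental serum ESCs at day 5, where 2 pairs were available, Nanog had levels of 11.62 and 11.77, against 12.29 and 12.40 in their untreated samples. The treated sample differed from its own untreated one by -0.67 and -0.63. The fitted change was -0.65 ± 0.12 (SE, n = 2 pairs), 1.57-fold lower, with a 95% interval of -0.96 to -0.34. Its limma adjusted p was 0.10, so it did not pass 0.05, and 0 of 4 members were called when 0.53% of 13404 genes were. The unadjusted limma p was 0.00347, when 21.8% of genes had one under 0.05. Leaving out a parental pair gave -0.63 without replicate 1 and -0.67 without replicate 2. Each such fit holds 1 parental pair and cannot measure the spread between parental pairs.

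Sox2 had levels of 12.52 and 12.81 in parental serum ESCs at day 5, against 12.67 and 13.20 untreated. Its fitted change was -0.27 with an interval of -0.59 to 0.04 and a limma adjusted p of 0.268. Without replicate 1 the change was -0.40, the value of the second pair alone. Pou5f1 had levels of 12.67 and 12.89 at day 5 against 12.75 and 12.84 untreated, and its 2 pairs differed in sign. Sall4 had levels of 12.09 and 11.70 at day 5 against 12.10 and 11.96 untreated, with pair changes of -0.01 and -0.26. The fitted changes of Pou5f1 and Sall4 were -0.02 and -0.13, with adjusted p-values of 0.937 and 0.548.

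In the c-Myc lines at day 5 of LY294002 no member passed, when 2.62% of genes did. Nanog differed from untreated by -0.32 in wild-type c-Myc and by -0.09 in c-Myc T58A ESCs, and the fitted value was -0.20 with an interval of -0.51 to 0.11. The other members had fitted values between -0.04 and 0.02. The day 5 change of the c-Myc lines minus that of the parental pairs was tested directly. For Nanog this was 0.45 ± 0.17 (SE), with a 95% interval of 0.01 to 0.89, an unadjusted limma p of 0.047 and an adjusted p of 0.996. In that test 0 of 13404 genes passed by limma and 3.41% had an unadjusted p under 0.05. For Sox2 the difference was 0.29 with an interval of -0.16 to 0.74, and for Sall4 and Pou5f1 it was 0.10 and 0.01.

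**Figure D3:**
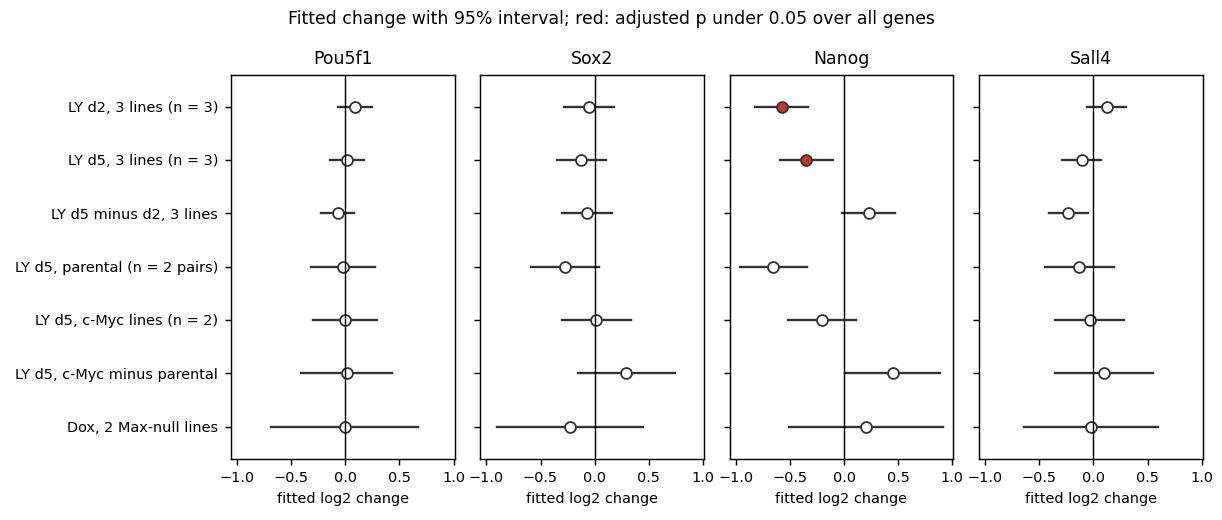
Fitted log2 change (points) with its 95% interval (bars) for each gene in 7 limma comparisons; red points have an adjusted p under 0.05 over all genes tested. Only Nanog at day 2 and at day 5 over 3 lines is red, at -0.57 and -0.35, and the Dox intervals are the widest.

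The 2i samples had 1 array each and were not tested. Nanog read 12.47 in 2i with LY294002 at day 5, against 12.73 in untreated 2i ESCs, a change of -0.26. Against serum replicate 1, 2i ESCs had a Nanog level higher by 0.44 without LY294002 and by 0.85 (1.80-fold) with it at day 5. Nanog in 2i with LY294002 therefore read above the untreated serum sample of the same array set, at 12.47 against 12.29. Sall4 read 12.04 in 2i with LY294002, against 11.91 in untreated 2i ESCs. Its second probe set was 0.50 lower in untreated 2i than in untreated serum ESCs, and the brighter probe set 0.18 lower. Sox2 and Pou5f1 with LY294002 in 2i differed from untreated 2i by 0.02 and -0.05.

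With Dox, Max-null ESCs had Nanog levels of 12.78 untreated, 13.15 at day 4 and 12.57 at day 6, so the values lay above and then below the untreated one. Pou5f1 read 13.01 untreated, 13.09 at day 4 and 12.63 at day 6. Sox2 read 13.17, 13.03 and 12.57 at the same times, and Sall4 11.85, 11.81 and 11.61. All 4 genes were thus lowest at day 6 in this line, although the second Sall4 probe set read 8.84 at day 6, against 8.83 untreated. The day 6 values differed between scalings, and the day 6 array had a median of 5.52, against 5.36 in the untreated sample. The cause was not tested. Centred on array medians, Sox2, Pou5f1, Sall4 and Nanog at day 6 differed from untreated by -0.76, -0.54, -0.40 and -0.38. After quantile normalization the differences were -0.38, -0.17, 0.02 and 0.02, so Sall4 and Nanog were no longer lower.

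In p110 alpha Max-null ESCs Nanog read 12.87 with Dox, against 12.50 untreated, a change of 0.37. Pou5f1 read 13.16 with Dox against 12.96, Sox2 13.07 against 13.11 and Sall4 12.09 against 11.96. The fit over both Max-null lines counted day 4 and day 6 of Max-null ESCs alike as Dox, against their 1 untreated sample. At these days Nanog changed by 0.37 and -0.21 and Pou5f1 by 0.07 and -0.38, so differences between the days enter the spread. The fitted Dox changes were near 0 (-0.0037) for Pou5f1, -0.23 for Sox2, 0.20 for Nanog and -0.02 for Sall4. Their limma adjusted p-values were 0.840 to 0.997, and no gene passed of 13534 (0%), with 5.18% having an unadjusted p under 0.05. The intervals reached from -0.91 to 0.45 for Sox2 and from -0.50 to 0.91 for Nanog, so changes of 1.5-fold were not detectable in this comparison.

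Some markers of other cell types read higher at the same day 6, when 24.5% of all genes above the filter differed by 2-fold or more in either direction. The share that was higher is not given here. A marker was counted where the untreated or the treated sample exceeded the filter, so some entered through the treated sample alone. In Max-null ESCs 3 of 8 primitive endoderm markers exceeded it untreated and 6 at day 6, and 6 of 8 trophoblast markers at both. The counts were 2 and 4 for mesendoderm, 4 and 5 for neuroectoderm and 2 and 4 for feeder markers. Of 6 trophoblast markers above the filter 4 were at least 2-fold higher in Max-null ESCs at Dox day 6, led by Krt18, a keratin, at 2.95. Of 6 primitive endoderm markers 5 were at least 2-fold higher, led by the forkhead factor Foxa2 at 3.02, while Lama1, a laminin chain, read -0.80, and 2 of 4 feeder markers were 2-fold higher. Of 5 neuroectoderm markers 2 were 2-fold higher and 1, the tubulin gene Tubb3, was lower at -2.13. Of 4 mesendoderm markers 1, the LIM factor Lhx1, was 2-fold higher at 1.33, and Eomes read -0.07. The summed linear level of the 8 trophoblast markers was 2745 at Dox day 6, against 495 in the untreated sample, and that of the 8 primitive endoderm markers was 934 against 945. In p110 alpha Max-null ESCs 0 of 6 trophoblast and 1 of 6 primitive endoderm markers were 2-fold higher. The part of other cell types in the member values was not tested, and in such bulk samples fewer cells with a transcript and less of it per cell cannot be told apart.

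No change of a member in any of the 11 treated samples reached 2-fold. At day 2 of LY294002 6.37% of genes above the filter did in parental replicate 2, 4.01% in the wild-type c-Myc line and 2.57% in the T58A line. At day 5 the shares were 3.75% in parental replicate 1, 10.2% in replicate 2, 7.45% in the wild-type c-Myc line, 5.98% in the T58A line and 2.67% in 2i. With Dox they were 13.9% at day 4 and 24.5% at day 6 in Max-null ESCs and 2% in p110 alpha Max-null ESCs. The widest member change was that of Nanog in parental replicate 2 at day 2 of LY294002, at -0.78 or 1.72-fold lower. The SD over the 11 changes was 0.15 for Pou5f1, 0.21 for Sox2, 0.39 for Nanog and 0.15 for Sall4. The median SD of 14066 genes was 0.34. Genes with a smaller SD made up 6.06% of these for Pou5f1, 19.7% for Sox2, 59.6% for Nanog and 5.42% for Sall4. Nanog thus varied about as much as a typical gene and the other members less than most. The members were compared with genes of unlike level, since the 14066 reach down to the filter of 4.64. Within each array Pou5f1 lay at percentiles 99.2 to 99.4 of all probe sets and Sox2 at 99.1 to 99.4. Nanog lay at 97.6 to 99.4 and the brighter Sall4 probe set at 97.8 to 98.7. Whether the SD depends on the level was not tested.

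The 11 changes share 7 untreated samples and are given as a description. Across them Sox2 and Sall4 had a Pearson r of 0.778, Pou5f1 and Sox2 of 0.586, and Pou5f1 and Sall4 of 0.581. Nanog had an r of 0.10 to 0.18 with the other members. Among the other 14065 genes those most like Pou5f1 were Sap130 (0.963), Sec24a (0.949), Ccdc88c (0.940) and Zfp397 (0.937). Those most like Sox2 were Wapl (0.949), the splicing factor gene Srsf2 (0.944), Aim2 (0.941) and Abtb1 (0.932). Those most like Nanog were R3hdm1 (0.930), Rai14 (0.892), Cpped1 (0.891) and St8sia6 (0.888). Those most like Sall4 were Cep290 (0.944), Psma8 (0.921), Rbm18 (0.917) and Triml1 (0.913). Only 5 of these 16 names recurred after quantile normalization over the arrays and 4 after averaging the probe sets of a gene.

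Genes known to be bound through paired Oct4 and Sox2 motifs had called changes in both directions with LY294002. Of 6 listed, 5 were tested, and at day 2 over the 3 lines 2 fell and 1 rose, with a list median of -0.44 against 0.04 over all genes. Fbxo15, encoding an F-box protein, fell at both days, with changes of -0.99 at day 2 and -1.89 at day 5 (limma adjusted p 7.90e-05 at day 5). Fgf4, the growth factor that ESCs secrete, changed by -0.59 at day 2 and -0.38 at day 5 (limma adjusted p 0.0453 at day 5). Utf1, a chromatin-associated factor, rose by 0.67 at day 2 and 1.02 at day 5. At day 5 the counts were again 2 lower and 1 higher, with a median of -0.03 against 0.05. Over all genes 30.5% passed at day 2 and 44.1% at day 5, so 3 of 5 at each day is read only as a count.

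Several close relatives of the members had larger fitted changes than the members themselves. Of 9 tested POU, SoxB and Sall genes and Sox15, 3 rose and 3 fell at day 5 over the 3 lines, and 1 rose and 2 fell at day 2, when 44.1% and 30.5% of all genes passed at these days. Pou3f1 (encoding Oct6), a POU factor of the primed epiblast, rose by 2.32 ± 0.51 at day 2 and 3.60 ± 0.51 at day 5 (SE, limma adjusted p 0.00123 at day 5). Sox15 and Sox3, relatives of Sox2, rose by 1.09 and 0.86 at day 5, while Sox1, the neuroectoderm SoxB factor, fell by 2.30. Sall1 fell by 1.68 and Sall3 by 1.08 at day 5. The list medians were 0.05 at day 2 and 0.12 at day 5. In parental pairs at day 5, when 0.53% of all genes passed, the only one of the 9 that did was Sox3, at 1.52 (limma adjusted p 0.0437). In the c-Myc lines, when 2.62% passed, it was Sox1, at -2.52 (limma adjusted p 0.0492). The limma test of the difference between c-Myc and parental lines gave an adjusted p of 0.996 for both genes. No gene of 13404 passed that test. The unadjusted limma p was 0.0028 for Sox3 and 0.0439 for Sox1, when 3.41% of genes had one under 0.05.

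**Figure D4:**
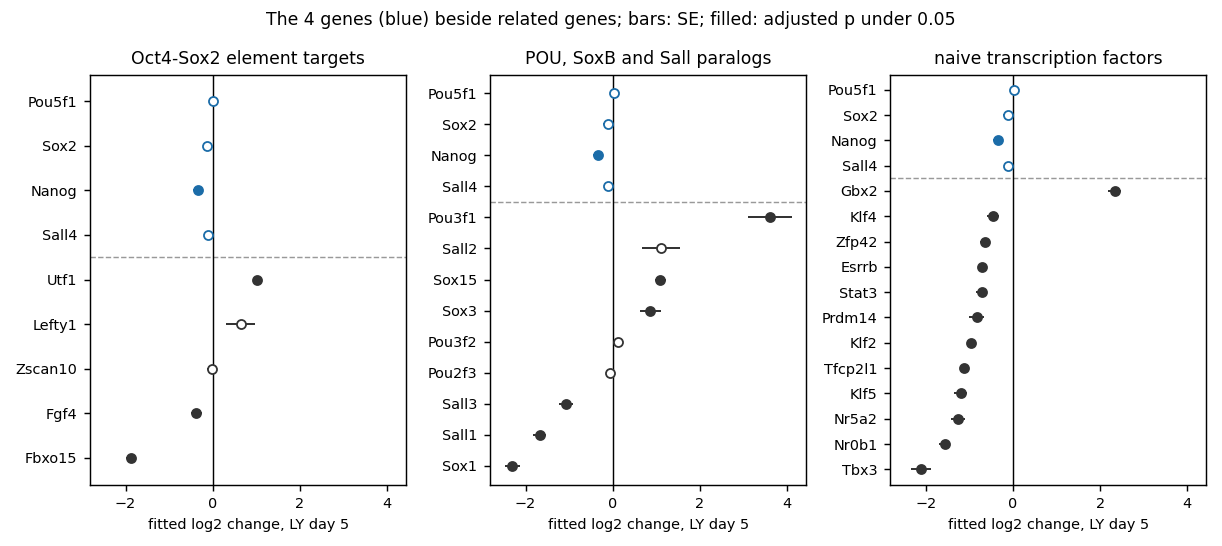
Fitted log2 change at day 5 of LY294002 over 3 lines (x axes) with its SE (bars) for the 4 members (blue, repeated above the dashed line) and 3 lists of related genes; filled points have an adjusted p under 0.05. Gbx2 and Pou3f1 lie at 2.33 and 3.60, most naive factors lie below 0, and all 4 members lie within 0.35 of 0.

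Of the 12 naive transcription factors, which help ESCs keep the naive state, 10 fell and 1 rose at day 2 and 11 fell and 1 rose at day 5, when 12.3% and 18.5% of all genes fell. The list medians were -0.61 and -0.89. Tbx3 fell by 2.11 and Nr0b1 by 1.56 at day 5, while Gbx2 rose by 2.33. Nanog, at -0.35, was nearer 0 at day 5 over the 3 lines than each of these 12, with Klf4 nearest at -0.46. It was also nearer in the c-Myc lines at day 5, at -0.20 against -0.36 for Klf4. At day 2, however, Nanog at -0.57 lay further below 0 than Klf2 (-0.49) and Esrrb (-0.45), near the list median. In parental pairs at day 5 Nanog at -0.65 lay below Klf4 (-0.47), Stat3 (-0.60) and Esrrb (-0.63), with a list median of -0.78. These differences were not tested. The lists were chosen with results of these data known, so these counts are descriptions.

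Partners of the members passed at shares near those of all genes, which were 30.5% at day 2 and 44.1% at day 5. Of 11 NuRD subunits 4 rose and none fell at day 2 (Mta1, Mbd3, Mta3 and Rbbp7), and at day 5 3 rose and 1, Gatad2b, fell. Mta1, a subunit of the complex that Sall4 binds, rose by 0.79 at day 2 and 0.88 at day 5, whereas the ATPase subunit Chd4 had values of -0.03 and 0.20. Of 15 tested cofactors of the network 4 rose at day 2, and 5 rose and 2 fell at day 5. Lin28a, an RNA-binding protein that blocks let-7 maturation, rose by 0.87 at day 2 and 0.65 at day 5, and Rif1, a telomere and replication-timing factor, fell by 0.42 at day 5. With Dox no gene of 13534 passed, so the absence of calls in these 5 lists says nothing about the lists.

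Markers of other lineages passed in both directions with LY294002. At day 5, when 44.1% of all genes passed, over the 3 lines 3 of 6 tested trophoblast markers rose and 2 fell, with Krt18 at 2.97, Krt8 at 1.99 and Cdx2 at 0.54. Of 7 tested primitive endoderm markers 1 rose (Dab2, 0.80) and 2 fell (Lama1 and Sox7, -1.67 and -1.34). Of 5 tested neuroectoderm markers 1 rose (Nes) and 2 fell (Sox1 and Tubb3), and of 3 tested mesendoderm markers 1 rose (Eomes, 0.68). None of 3 tested feeder markers passed. Their part in the Nanog values was not tested.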

How the data were processed

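Biotin-labelled cRNA from total RNA of 18 samples was hybridised to 1 Affymetrix array each, per the labels. The deposited values are log2 probe set levels that the authors made by RMA with the affy package, per the submitters' processing notes, with versions not given. No label states the RMA runs. The number of arrays limits the precision.

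Of 45101 probe sets 64 were controls, 34945 named 1 gene, 932 several and 9160 none, and 34741 matched a reference gene by identifier. Each gene was given its probe set of highest mean, and was tested where 2 samples of the fit exceeded 4.64, the 40th percentile. limma 3.58.1 (lmFit, eBayes, R 4.3.3) was fitted to 8 serum samples for day 5, to 9 for days 2 and 5 over 3 lines, and to 5 for Dox, with pair or line as a block. The fits had 2, 4 and 2 residual degrees of freedom, and the scripts were tested on simulated data. Tests were 2-sided, and p-values were adjusted by Benjamini-Hochberg across every gene tested, at a threshold of 0.05. Pairs came from the reference sample that each description names. The difference between 2 pairs when untreated correlated with that at day 5 (r = 0.563 for the parental pairs and 0.158 for the c-Myc lines, over 14066 genes). The parental pairs lie in different array sets, so their r includes any offset between the sets and cannot show the pairing. Single changes were counted at 2-fold and not tested. Motifs were sought in RefSeq windows of GRCm38.p6.

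The named genes were the members, the 4 genes of highest Pearson r with each, and from each list and comparison up to 4 that passed with the smallest p, or the 2 smallest p where none passed. Chd4, Klf4, Klf2, Esrrb and Stat3 were named after their values were seen. The members and lists were chosen with earlier results of these data known. Alternatives changed the level filter, the array scaling, the probe set choice, the block and the samples included.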

Additional observations from a re-analysis of the deposited data

Results flagged for a closer look

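Sox2 at day 5 of LY294002 was slightly higher in 2i (0.02) and lower in both parental serum pairs (-0.15 and -0.40), a difference of 0.2946 from their mean. Sall4 at the same day was higher in 2i (0.13) and lower in both parental serum pairs (-0.01 and -0.26), a difference of 0.2617. With arrays centred on their medians the first of these pairs read 0.02, so it was then no longer lower. Sox2 at day 2 was higher in both c-Myc lines (0.04 and 0.07) and lower in the parental line (-0.26), a difference of 0.3177. Sall4 with Dox was higher in p110 alpha Max-null ESCs (0.13) and lower at both days in Max-null ESCs (-0.04 and -0.23), a difference of 0.2672. After quantile normalization Max-null ESCs read 0.03 and 0.02, and by the second Sall4 probe set 0.10 and 0.01, so these directions were then no longer opposite. In each case, in the deposited values, every sample on one side moved opposite to every sample on the other, 1 side held a single sample, and the difference was not tested.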

How the results depend on the processing

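Of 359 fitted member changes under alternatives, 331 kept their direction and side of the threshold, 22 changed sign, 3 lost a call and 3 gained one. The number of members called was 0 to 1 at day 2 and 0 to 1 at day 5 over 3 lines when a line was left out. The 3 gained calls all came from day 5 fits with 1 parental pair left, which cannot measure the spread between parental pairs. Without a c-Myc line the number called in parental ESCs at day 5 stayed at 0. Where 1 pair was left, it was assumed to vary like the others. With no replicate block, in place of the paired fit, the calls stood, Nanog having -0.57 at day 2 with an adjusted p of 0.00540. Sign changes under quantile normalization were Pou5f1 with Dox at 0.0666, Pou5f1 at day 5 over 3 lines at -0.0022, Pou5f1 between c-Myc and parental lines at -0.0155, Sall4 with Dox at 0.0699 and Sox2 in the c-Myc lines at -0.0073. With arrays centred they were Pou5f1 and Sall4 in the c-Myc lines at 0.0412 and 0.0093. Sall4 with Dox was 0.0076 over the mean of its probe sets and 0.0388 by its second one. With a sample or line left out, sign-changing values were Pou5f1 with Dox 0.13, Pou5f1 in c-Myc lines 0.0527, Pou5f1 in parental ESCs 0.0522, Pou5f1 over 3 lines at day 5 -0.0036 and -0.0034, Pou5f1 between lines -0.0413 and -0.0555, Sall4 with Dox 0.0434, Sall4 in c-Myc lines 0.0115, Sall4 between lines -0.0299, Sox2 at day 2 0.0566, Sox2 in c-Myc lines -0.0086 and Sox2 at day 5 over 3 lines 0.0161. The range over 18 samples was 0.70 for Pou5f1 and 0.97 for Sall4 with arrays centred, and 0.33 and 0.65 after quantile normalization. Of the 16 most similar genes, 13 recurred with arrays centred, 5 under quantile normalization and 4 over the mean of probe sets. The cause was not tested. Leaving out the Max-null line in the Dox comparison left no residual degrees of freedom and was not run.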
